A study of Mus musculus with 20 samples.

Results

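This account describes 444 stretches of the mouse genome in which peaks of p65 lay close together in wild-type macrophages 30 min after lipopolysaccharide. Peaks of the p65 WT LPS 30 min list were joined where neighbouring centres on the same chromosome lay at most 12.5 kb apart. Only 127 of the joined chains held 8 or more peaks, fewer than the 200 that the rule asks for, so the rule's lower minimum of 6 peaks was used. The 444 clusters held 3191 of the 36030 peaks of that list (8.86%) and were drawn from 20318 chains, of which 11816 were single peaks and 8058 held 2 to 5 peaks. The clusters were thus chosen by the peak positions of the p65 WT LPS 30 min list, and that list's numbers in them are given only as a description.

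The cells were mouse bone-marrow-derived macrophages (BMDM), profiled by CUT&RUN, an assay in which an antibody directs a nuclease to cut the DNA around a chromatin protein. The groups were KO cells and WT cells, each left without lipopolysaccharide (control) or given 100 ng/mL lipopolysaccharide (LPS) for 30 min or 8 h, and each profiled with an antibody to p65 and with one to SOCS1. That gives 12 peak lists from 12 libraries, 1 per antibody, genotype and treatment, and 6 IgG libraries entered only through the authors' peak calls. The study's design text writes the WT strain as C65BL6 and names the KO as NOS1, while its title concerns SOCS1, so which gene the KO cells lack was not settled here and a SOCS1 peak in KO cells cannot be read as a loss or as a residue of SOCS1. With 1 library per group there was no replicate check of any difference, no test was made between groups, and the 95% exact Clopper-Pearson intervals cover counting error only. Peak lists hold no expression, so the labelled cell type was not checked against its markers.

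p65, encoded by Rela, is the activating subunit of NF-κB. In resting macrophages it is held in the cytoplasm by IκB proteins; LPS acts through Toll-like receptor 4 to have IκB degraded, p65 then enters the nucleus and binds promoters and enhancers of inflammatory genes, and newly made IκB ends the first wave. Macrophage enhancers often lie in groups around genes of the cell's identity and of its response to infection, and several p65 sites may then lie close together. SOCS1 is a feedback inhibitor of cytokine signalling that blocks JAK kinases at the receptor, and a SOCS1 peak here is what the antibody's library gave at that site.

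Sequences are printed for promoters in the clusters whose 250 bases before the start site were under a p65 WT LPS 30 min peak, from RefSeq on GRCm38.p6, which is the mm10 build of the files. Of 657 protein-coding genes in clusters, 535 had a promoter in that table. The first set shows 4 of the 10 gene-list members with such a peak, those with the highest peak score among chemokines, interferon-stimulated genes and JAK-STAT components, and for the last the highest 2. Each runs 5′ to 3′ on the gene's strand and ends at the base before the start site, and capitals mark the bases inside the peak. Ccl3 encodes a chemokine for monocytes, Gbp3 an interferon-induced GTPase, Cish a SOCS-family inhibitor and Stat6 the transcription factor of interleukin-4 signalling.
Ccl3 (chr11:83649379-83649628, minus strand): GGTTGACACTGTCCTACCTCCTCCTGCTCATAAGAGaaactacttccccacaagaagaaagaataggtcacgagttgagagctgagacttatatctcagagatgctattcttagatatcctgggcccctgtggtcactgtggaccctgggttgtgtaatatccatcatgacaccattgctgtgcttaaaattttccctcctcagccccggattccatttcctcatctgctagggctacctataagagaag
Gbp3 (chr3:142560106-142560355, plus strand): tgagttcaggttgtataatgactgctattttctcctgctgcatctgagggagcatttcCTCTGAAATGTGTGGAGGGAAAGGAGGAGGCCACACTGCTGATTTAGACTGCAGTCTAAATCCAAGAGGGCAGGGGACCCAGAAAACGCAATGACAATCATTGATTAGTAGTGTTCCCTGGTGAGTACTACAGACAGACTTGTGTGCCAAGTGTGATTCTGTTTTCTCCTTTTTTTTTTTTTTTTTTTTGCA
Cish (chr9:107296409-107296658, plus strand): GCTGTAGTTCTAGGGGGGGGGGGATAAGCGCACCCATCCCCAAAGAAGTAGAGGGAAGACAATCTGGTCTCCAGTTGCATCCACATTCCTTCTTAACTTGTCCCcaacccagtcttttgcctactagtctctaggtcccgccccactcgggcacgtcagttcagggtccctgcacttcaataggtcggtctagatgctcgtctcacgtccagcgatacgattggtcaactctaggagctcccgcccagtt
Stat6 (chr10:127642736-127642985, plus strand): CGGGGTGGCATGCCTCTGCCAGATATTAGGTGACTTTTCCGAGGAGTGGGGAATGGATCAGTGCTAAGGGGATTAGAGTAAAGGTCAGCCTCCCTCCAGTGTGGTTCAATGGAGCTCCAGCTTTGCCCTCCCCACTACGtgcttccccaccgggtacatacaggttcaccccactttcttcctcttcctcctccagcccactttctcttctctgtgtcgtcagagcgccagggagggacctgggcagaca

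The Ccl3 peak had an authors' score of 136.5 (HOMER's score, the tags in the peak under a limit on tags per base) and was overlapped by a peak in the p65 KO LPS 30 min, p65 WT LPS 8 h, SOCS1 KO LPS 30 min and SOCS1 WT LPS 8 h lists. The Cish peak, of score 126.5, had a peak over it in 10 of the 11 other lists, all but p65 KO LPS 30 min, and the Stat6 peak, of score 83.5, in 9, all but both p65 controls. The Gbp3 peak, of score 130, was overlapped in 6 other lists and in none of the 4 control lists. So of these 4 peaks, that at Cish was already overlapped with both antibodies in the controls of both genotypes. The Stat6 peak was overlapped there with SOCS1 only, and the Ccl3 and Gbp3 peaks only after LPS. This holds for these peaks and not for the whole promoter region. Near the Ccl3 start, at 83649378, control peaks were called at 83648877-83649235 (p65 WT) and 83648773-83649187 (SOCS1 KO). A p65 KO LPS 8 h peak at 83648891-83649383 covered that start.

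The second set shows promoters in clusters that hold a simple form of the κB motif that p65 binds: GGG, any 2 bases, then TTTCC, searched on both strands. Capitals mark the match, which reads as GGAAA, any 2 bases, then CCC where it lies on the other strand, and up to 30 bases on each side are given. Grcc10 and LOC115488765 are shown because theirs were the 2 of 10 upstream matches inside the peak itself, Tuba1c because its promoter peak had the highest score, and Hpn because it matches GGGAATTTCC. Tuba1c encodes an α-tubulin and Hpn the protease hepsin.
Grcc10 (chr6:124741196-124741265, minus strand): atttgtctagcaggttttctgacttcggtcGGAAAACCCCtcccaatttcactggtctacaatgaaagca
LOC115488765 (chr17:86950358-86950410, plus strand): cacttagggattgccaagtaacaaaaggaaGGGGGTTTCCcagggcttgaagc
Tuba1c (chr15:99029838-99029890, plus strand): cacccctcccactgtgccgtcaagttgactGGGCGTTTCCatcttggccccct
Hpn (chr7:31111197-31111247, minus strand): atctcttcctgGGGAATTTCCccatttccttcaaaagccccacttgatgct

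A 30 min peak covered part of the window from 250 bases before to 50 after the start site in 230 of 513 cluster promoters (44.8%, against 20.6% of all), a figure that the choice of the clusters raises. Of these 230, 15 held the motif (6.52%, 95% interval 3.70% to 10.5%), against 87 of 4152 promoters under a 30 min peak elsewhere (2.10%, 1.68% to 2.58%) and 1.6% of all 21263 promoters. Counted once per gene, it was 12 of 203 genes in clusters (5.91%) and 83 of 3777 genes elsewhere (2.20%). The median GC content of the windows was 60.3% in clusters and 60.7% elsewhere. The share rests on few promoters: with at least 8 peaks per cluster it was 3.33%, and with a joining distance of 25 kb it was 3.52%. A match is a description of letters, and most of the upstream matches lay outside the peak that covered part of the promoter. None of the 11 gene-list promoters with upstream bases under a peak, the first 4 printed included, held the motif in those 250 bases.

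The clusters held a median of 7 p65 WT LPS 30 min peaks, with 200 clusters of 6, 117 of 7, 55 of 8, 28 of 9 and 44 of 10 or more, the largest having 17. They were 15.4 to 115 kb long with a median of 36.0 kb, and covered 17.1 Mb in all. They lay on 20 chromosomes, with 35 on chromosome 10, 34 on chromosome 11 and 3 on X. The strongest peak of a cluster held a median of 25.6% of the cluster's summed score, and never more than 55.5%. In 384 of 444 clusters the strongest peak lay in the highest of 4 equal groups by score, as did 1151 of the 3191 cluster peaks in all. Just inside the threshold, the clusters of 6 peaks had a median summed score of 217.75, and just outside it the 441 chains of 5 peaks had one of 177. The highest summed scores included 499 (near Bcl2l11) and 450.5 (Fyco1 with Xcr1) among clusters of 6 peaks, and 512.5 (Trps1), 493.5 (Lcp1) and 491.5 (near Fos) among chains of 5.

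**Figure D1:**
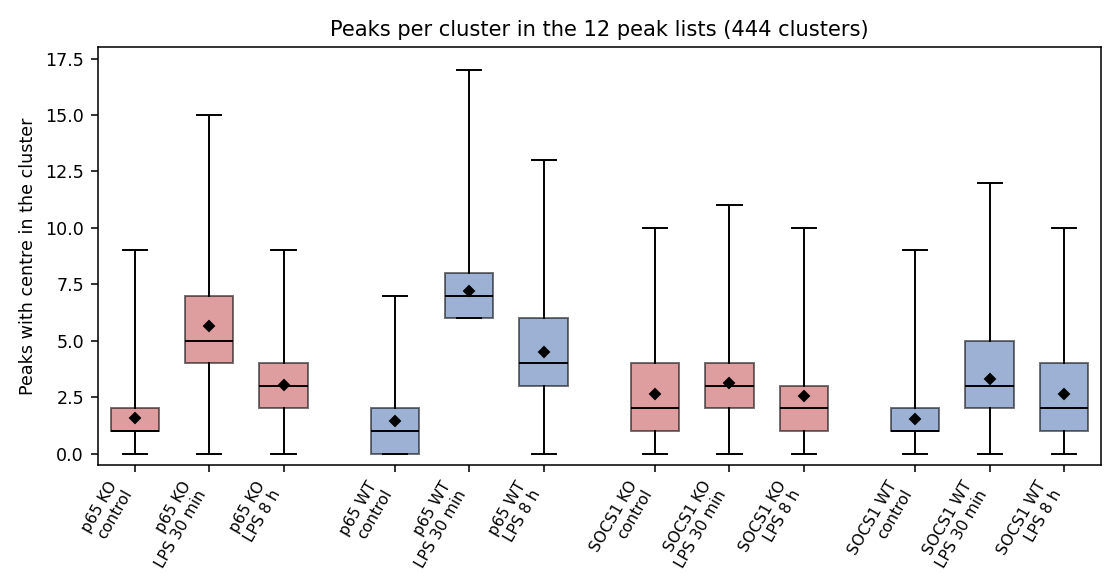
Peaks per cluster in each of the 12 lists over the 444 clusters; boxes span the quartiles with the median as a line, whiskers run from the lowest to the highest cluster, diamonds are means, red is KO and blue is WT. The p65 WT LPS 30 min list, which chose the clusters, has a mean of 7.19, the p65 KO LPS 30 min list 5.64 and the 4 control lists 1.43 to 2.65.

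Of the cluster peaks, 459 lay within 1 kb of a start site (14.4%, 13.2% to 15.7%), against 6642 of the 32839 peaks elsewhere (20.2%, 19.8% to 20.7%). In 215 clusters no peak lay that near to a start site, and in 78 clusters (17.6%) the strongest peak did. Most cluster peaks thus lay away from start sites, while 368 of the 444 clusters touched a protein-coding gene. Their peaks had a median fold over the surrounding 10 kb of 6.95, against 8.63 elsewhere. The authors' caller kept only peaks at least 4-fold over those 10 kb, which other peaks of a cluster may share, and the part of this filter in the number of peaks per cluster was not tested.

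The span of 76 clusters touched no protein-coding gene, 213 touched 1 and 17 touched 5 or more. The 76 lay a median of 24.7 kb and at most 297 kb from the nearest gene, and 48 of them held a non-coding gene. Among the 10 clusters with the most 30 min peaks, 2 were of this kind. One, of 13 peaks at chr19:34363011-34451393, lay 22390 bp from Ch25h, which makes the oxysterol 25-hydroxycholesterol in LPS-treated macrophages. The other, of 11 peaks, lay near Nenf. Others, picked after their values were seen because the nearest gene is well known, lay 392 bp from Ifngr1, the interferon-γ receptor (9 peaks), 2096 bp from Il1b (8 peaks) and 27194 bp from Cebpb, a transcription factor of the myeloid lineage (8 peaks). Distance alone does not say which gene a peak acts on.

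The lead genes of the largest clusters were of mixed kinds. The cluster with the most peaks, 17 at chr10:78054616-78170015, spanned Dnmt3l, Icosl and Gatd3a; Icosl encodes the ligand of the T-cell costimulator ICOS. The next, 14 peaks at chr5:115484280-115575020, spanned Sirt4, Pxn, Rplp0 and Gcn1, of which Pxn encodes the adhesion protein paxillin. A cluster of 13 peaks spanned Tomm20, an import receptor of mitochondria. Another of 13 spanned Helb, Irak3 and Tmbim4; Irak3 encodes IRAK-M, a brake on Toll-like receptor signalling. Clusters of 12 peaks spanned the Tnf region, Snx10, Tuba1c, and Rtn2 with Fosb and Ercc1.

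The Tnf cluster (chr17:35165275-35242868) spanned Tnf, Lta and Ltb, which encode cytokines of the TNF family, and the neighbouring genes Prrc2a, Aif1, Lst1, Nfkbil1, Atp6v1g2 and Ddx39b. It held 9, 8 and 5 p65 peaks in KO cells (control, LPS 30 min, LPS 8 h), against 3, 12 and 10 in WT cells. With SOCS1 it held 10, 8 and 4 peaks in KO cells and 6, 11 and 6 in WT cells. By number alone, both antibodies thus gave most peaks in the control list in KO cells, and SOCS1 gave most at 30 min in WT cells. The signal, a peak's tag number scaled by the authors to a common library size, was not highest there. For p65 in KO cells it was 16.5 to 59.2 in the control, 16.8 to 328.7 at 30 min and 42.7 to 305.5 at 8 h. For SOCS1 in KO cells it was 15.5 to 144, 30.7 to 214.7 and 24.4 to 68.8 in that order. The 9 p65 control peaks in KO cells were the most in any cluster of that list.

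The cluster over Ccl3 and Ccl4, 2 chemokines that draw monocytes, held 1, 7 and 3 p65 peaks in KO cells (control, LPS 30 min, LPS 8 h), against 7, 8 and 6 in WT cells. Its 7 p65 peaks in WT control cells were the most in any cluster of that list. The cluster over Ccl2, the main monocyte chemoattractant, held 2, 7 and 3 p65 peaks in KO cells and 2, 8 and 8 in WT cells. With SOCS1 the Ccl2 cluster held 4, 3 and 7 peaks in KO cells and 2, 6 and 7 in WT cells. The Ccl3 cluster was thus already dense in WT control cells, and the Ccl2 cluster was not.

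The Irak3 cluster held 5, 12 and 8 p65 peaks in KO cells (control, LPS 30 min, LPS 8 h) and 3, 13 and 13 in WT cells. The Stat6 cluster, with Nab2, held 1, 7 and 5 p65 peaks in KO cells and 1, 10 and 6 in WT cells. Its SOCS1 peaks numbered 4, 8 and 3 in KO cells and 5, 9 and 4 in WT cells, so that SOCS1 in both genotypes and p65 in KO cells had most peaks at 30 min. The Irf8 cluster held 2, 6 and 3 p65 peaks in KO cells and 1, 10 and 6 in WT cells. Irf8 encodes a transcription factor that macrophages need to develop. This cluster ran from 120682712 to 120736930 and the gene from 120736358 to 120756694, so most of the cluster lay outside the gene. The Fosb cluster, over a gene of the AP-1 family switched on within minutes of many stimuli, held 4, 12 and 5 in KO cells and 1, 12 and 10 in WT cells.

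**Figure D2:**
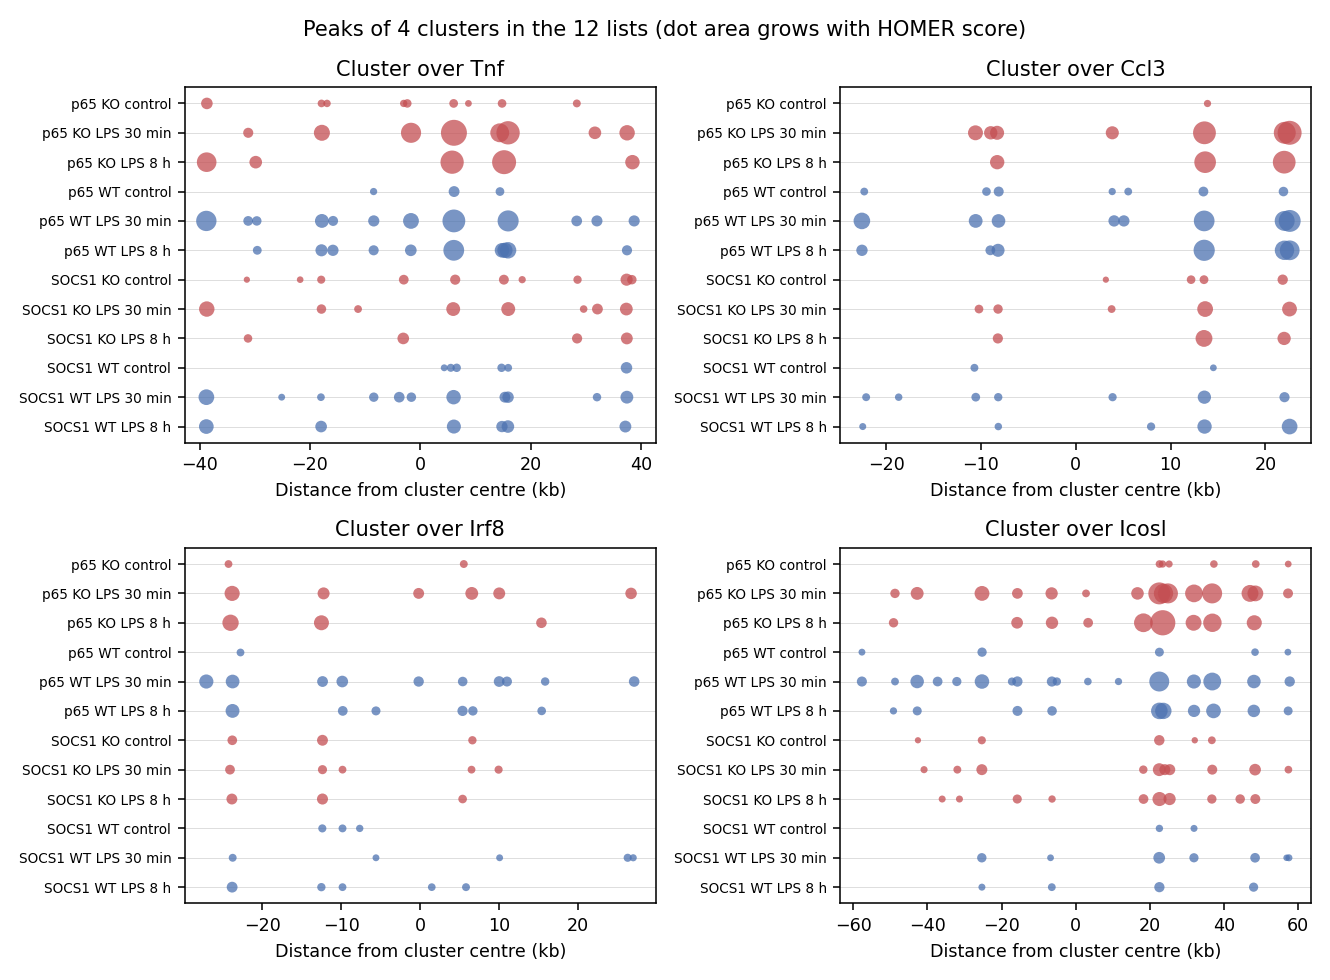
Positions of the peaks of the 12 lists in the clusters that overlap Tnf, Ccl3, Irf8 (only an end of the gene) and Icosl, as distance from the cluster centre in kb. Each dot is a peak, its area grows with the authors' score, red is KO and blue is WT. The Tnf cluster holds 8 p65 peaks in KO and 12 in WT cells at 30 min, and the Ccl3 cluster 1 and 7 in the controls.

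After LPS the clusters held p65 peaks in KO cells too. The p65 KO LPS 30 min list had a peak in 443 of 444 clusters, the p65 WT LPS 8 h list in 440 and the p65 KO LPS 8 h list in 433. Chains of 5 peaks, just outside the threshold, already held means of 3.56, 2.87 and 1.85 peaks of these lists in that order. The share of other stretches of like length that hold such a peak was not counted. Before LPS, 339 clusters had a p65 peak in KO cells (76.4%) and 330 in WT cells (74.3%), and 41 had none in either. Few clusters were dense before LPS: 6 had at least 6 p65 peaks in KO control cells and 2 had so many in WT control cells. These control lists are short, with 10721 peaks in KO and 9643 in WT cells, against 36030 in the list that chose the clusters. Over the whole genome the same rule gave 9 clusters from the KO control list and 4 from the WT one. In mean peaks per cluster, p65 had 1.58, 5.64 and 3.03 in KO cells and 1.43, 7.19 and 4.52 in WT cells (control, LPS 30 min, LPS 8 h), where the WT value at 30 min is the one that chose the clusters.

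All clusters but 1 had a SOCS1 peak in at least 1 of the 6 SOCS1 lists. A SOCS1 peak was called in 411, 426 and 408 clusters in KO cells (control, LPS 30 min, LPS 8 h) and in 342, 417 and 391 in WT cells. The mean per cluster was 2.65, 3.11 and 2.55 in KO cells and 1.55, 3.29 and 2.64 in WT cells. Chains of 5 peaks, just outside the threshold, held means of 1.61, 1.89 and 1.55 in KO cells and 0.896, 2.06 and 1.57 in WT cells. In all, 284 clusters had a peak in each of the 6 SOCS1 lists, 260 in each of the 6 p65 lists and 199 in all 12. How many other stretches of like length hold such peaks was not counted, so these numbers have no background beside them. A single cluster, of 6 peaks over Ext1, which makes heparan sulfate chains, had no SOCS1 peak in any list. It also had no p65 peak in WT cells at the control or at 8 h, but had 1, 3 and 2 in KO cells.

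One cluster held many SOCS1 peaks with and without LPS. It lay on X at 50572616 to 50614797 within Firre, a long non-coding RNA gene known for its part in X-chromosome organisation. Its SOCS1 peaks numbered 8, 5 and 9 in KO cells (control, LPS 30 min, LPS 8 h) and 9, 7 and 10 in WT cells. Its p65 peaks numbered 3, 9 and 3 in KO cells and 3, 9 and 8 in WT cells. The 9 SOCS1 peaks in WT control cells were the most in any cluster of that list. A cluster of 10 peaks on chromosome 13 spanned 15 histone genes and had 8, 8 and 5 SOCS1 peaks in KO cells and 4, 8 and 7 in WT cells.

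Peak by peak, the cluster peaks recurred slightly more often than those elsewhere. Of the 3191 cluster peaks, 67.9% (66.2% to 69.5%) were overlapped by a p65 KO LPS 30 min peak, against 64.0% (63.5% to 64.5%) of the 32839 elsewhere and 64.4% of all. The WT LPS 8 h list overlapped 51.0% of the cluster peaks and 45.9% elsewhere (46.3% of all), and the SOCS1 WT LPS 30 min list, which shares its IgG library with the list that chose the clusters, 35.7% and 28.3% (28.9% of all). The share was higher in clusters for 10 of the 11 lists, by 1.88 to 7.52 points, and lower for p65 KO LPS 8 h, at 38.4% in clusters and 40.4% elsewhere (40.2% of all). For SOCS1 in KO cells the shares in clusters and elsewhere were 25.4% and 23.2% (23.4% of all) in the control, 35.5% and 30.4% (30.9%) at 30 min, and 27.7% and 24.4% (24.7%) at 8 h. For SOCS1 in WT cells they were 15.9% and 12.7% (13%) in the control and 28.5% and 21.0% (21.7%) at 8 h. For the p65 controls they were 14.9% and 13% (13.1%) in KO cells and 15.0% and 11.8% (12.1%) in WT cells. Cluster peaks also had higher scores, with a median of 33 against 25 elsewhere, and peaks of high score recurred more. Compared within 4 equal groups by score, the share was higher in clusters for only 3 of the 11 lists. The difference was then -2.85 points for p65 KO LPS 30 min, -3.14 points for p65 WT LPS 8 h and 0.20 points for SOCS1 WT LPS 30 min.

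**Figure D3:**
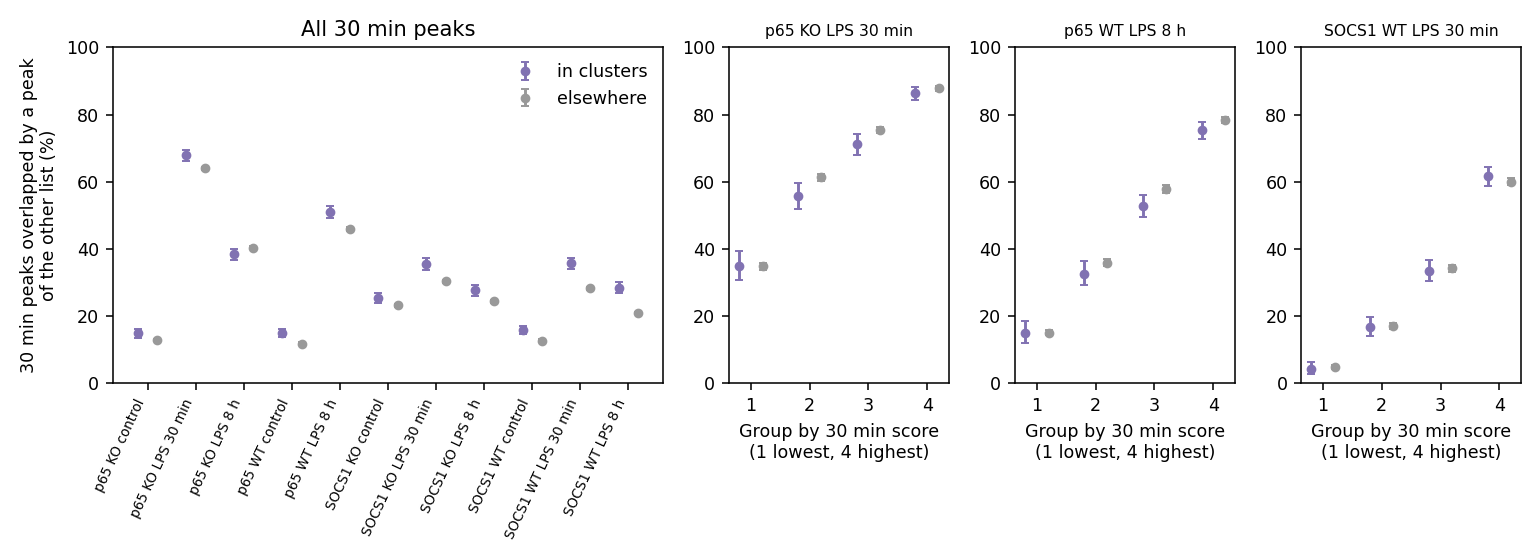
Share of p65 WT LPS 30 min peaks overlapped by at least 1 bp by a peak of each other list (%), for peaks in clusters (purple) and elsewhere (grey) with exact 95% intervals; the 3 right panels split 3 of the lists into 4 equal groups by the 30 min score. Purple points lie above grey ones in 10 of 11 lists on the left, and at or below them in most groups on the right.

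Within a cluster the strongest peak was the one most often found again. It was overlapped by a p65 KO LPS 30 min peak in 87.6% of clusters (84.2% to 90.5%), against 60.7% (58.7% to 62.7%) of the peaks ranked 3 or lower in their cluster. For p65 WT LPS 8 h these shares were 79.3% and 41.9%, for SOCS1 KO LPS 30 min 66.2% and 26.5%, and for SOCS1 WT LPS 30 min 64.0% and 27.4%. In p65 control libraries the strongest peak was found in 27.7% of clusters in KO cells and 23.4% in WT cells. Peaks elsewhere in the highest of 4 equal groups by score had shares near those of the strongest cluster peaks. These were 87.8% for p65 KO LPS 30 min, 78.4% for p65 WT LPS 8 h, 63.5% for SOCS1 KO LPS 30 min and 60% for SOCS1 WT LPS 30 min. For the p65 controls they were 28.2% in KO cells and 22.1% in WT cells. Since most cluster peaks ranked 3 or lower, such peaks still made up 1399 of the 2166 cluster peaks overlapped in the p65 KO LPS 30 min list. In the p65 WT LPS 8 h list they made up 965 of 1628. Cluster peaks near a start site had a SOCS1 WT LPS 30 min peak in 47.5% of cases, against 33.7% of those farther away; elsewhere in the list these shares were 41.3% and 25.0%.

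At 8 h the clusters held fewer p65 peaks in KO cells than in WT cells. The total was 1344 in KO cells and 2006 in WT cells, a ratio of 0.67, while outside the clusters the ratio of the 2 lists was 0.844. Of 325 clusters with at least 4 peaks in either list, 128 had at least 2 times fewer in KO cells (39.4%) and 6 had at least 2 times more (1.85%). Over 100 kb windows of the genome counted the same way, 25.5% had at least 2 times fewer in KO cells and 5.54% at least 2 times more. In all, 301 of the 444 clusters had fewer peaks in KO cells, 80 as many and 63 more. With a joining distance of 25 kb, which gave 1512 wider clusters, the share with at least 2 times fewer in KO cells was 25.8%, near that of the windows.

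The clusters with the widest deficit in KO cells at 8 h were those near Nenf (1 peak in KO cells, 11 in WT cells), over Tomm20 (5 and 13), over Slamf7, a receptor of the SLAM family (2 and 10), over the histone genes (3 and 10) and near Igf1 (3 and 10). All 5 had been dense at 30 min in KO cells, with 12, 15, 10, 11 and 7 p65 peaks in that order. The opposite was seen over Ly86, which encodes MD-1, the partner of the Toll-like receptor relative RP105, with 9 p65 peaks in KO cells and 5 in WT cells at 8 h. Snx29 (5 in KO and 2 in WT cells), Wipf1 (5 and 2), Fndc3b (4 and 1), and Klhl9 with Gm13271 (3 and 1) followed. All of these clusters were picked by this difference at 8 h, so its direction in each was fixed by the choice.

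The p65 KO LPS 8 h library differed technically from its WT counterpart: its peaks were 493 bp wide with at least 986 bp between centres, against 239 bp and 478 bp in WT cells. Depth was 11 M tags in KO cells and 10.6 M in WT cells. The authors' filter against the surrounding 10 kb removed 35% of putative peaks in KO cells and 27.8% in WT cells. The median fold of the kept peaks over those 10 kb was 6.93 and 8.33. None of the choices that follow adjusts for this filter. With both lists thinned to the wider distance the ratio was 0.733 in clusters and 0.917 outside, and with equal numbers of peaks by score it was 0.722 and 1.02. In 805 clusters built by the same rule from the p65 KO LPS 30 min list instead, it was 0.654 in clusters and 0.855 outside. The ratio was thus lower in clusters than outside under each of these choices. Whether genotype, library, peak width or the local filter sets it cannot be told apart with 1 library each.

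**Figure D4:**
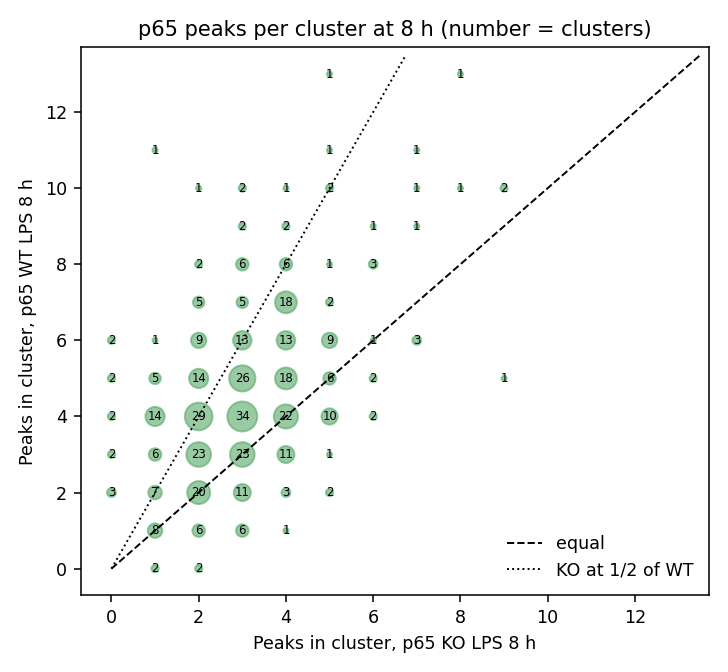
p65 peaks per cluster at LPS 8 h in KO cells (x axis) and WT cells (y axis); each circle is a pair of values, its area and number give the clusters with that pair, the dashed line marks equal numbers and the dotted line KO at 1 peak for 2 in WT. Of the 444 clusters 301 lie above the dashed line, with fewer peaks in KO cells.

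Without LPS, the clusters held 703 p65 peaks in KO cells and 635 in WT cells, a ratio of 1.11, the same as outside. For SOCS1 they held 1175 in KO control cells and 686 in WT control cells, a ratio of 1.71 in clusters and 2.64 outside. Of 138 clusters counted, 83 had at least 2 times more SOCS1 peaks in KO control cells (60.1%) and 4 at least 2 times fewer (2.90%), against 70.7% and 1.13% of windows. The SOCS1 KO control list is long, with 24270 peaks of a median score of 9, against 9438 peaks of a median score of 12 in WT control cells. With equal numbers of the highest peaks the ratio was 1.06 in clusters and 0.996 outside, so at equal list length the number in the clusters was close in both genotypes. After LPS the SOCS1 ratio of KO to WT cells was 0.945 at 30 min and 0.965 at 8 h in clusters, and 1.02 and 1.16 outside.

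SOCS1 peaks were more numerous in the clusters after LPS in WT cells. There were 1462 at 30 min and 686 in the control, a ratio of 2.13 in clusters and 2.08 outside. Of 200 clusters counted, 147 had at least 2 times more SOCS1 peaks at 30 min (73.5%) and 6 at least 2 times fewer (3.00%), against 71.3% and 2.49% of windows, so the clusters were near the genome at large. At 8 h the ratio to the control was 1.71 in clusters and 1.43 outside. With equal numbers of peaks the 30 min ratio was 1.34 in clusters and 0.973 outside, and the 8 h ratio 1.33 and 0.974.

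In KO cells the SOCS1 lists after LPS were shorter than the control list. The clusters held 1381 peaks at 30 min and 1175 in the control, a ratio of 1.18, while outside it was 0.803. At 8 h the ratio to the control was 0.962 in clusters and 0.628 outside. Of 212 clusters counted at 30 min, 58 had at least 2 times more peaks than the control (27.4%) and 27 at least 2 times fewer (12.7%), against 19.1% and 23.6% of windows. With equal numbers of peaks the ratios in clusters were 1.28 at 30 min and 1.15 at 8 h, and 0.984 and 0.990 outside. Under that choice the SOCS1 peaks of both genotypes were thus relatively more frequent in the clusters after LPS than in their controls. The clusters came from an LPS 30 min list, which shares its IgG library with SOCS1 WT LPS 30 min. Their peaks also had higher scores (median 33 against 25 elsewhere), and the choice of equal numbers keeps the highest scores. The part of these points in the ratios was not tested.

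For p65 in KO cells, the clusters held 3.56 times as many peaks at 30 min as in the control, and outside them the ratio was 4.05. Of 395 clusters counted, 349 had at least 2 times more (88.4%), against 92.6% of windows. The control had at least 2 times more in none, at 0.039% of windows. In WT cells at 8 h the ratio to the control was 3.16 in clusters and 3.22 outside, and 270 of 308 clusters had at least 2 times more (87.7%) and 1 at least 2 times fewer (0.325%), against 87.1% and 0.427% of windows. In KO cells at 8 h the ratio to the control was 1.91 in clusters and 2.44 outside, and 108 of 170 clusters had at least 2 times more (63.5%) and 8 at least 2 times fewer (4.71%), against 75.1% and 2.2% of windows. By number of peaks the ratio of LPS to control was thus close to that outside the clusters for WT cells at 8 h, and lower in the clusters in KO cells at both times.

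The same rule applied to each list showed how far density depends on the list. It gave 9, 805 and 53 clusters for p65 in KO cells (control, LPS 30 min, LPS 8 h) and 4, 444 and 396 in WT cells. For SOCS1 it gave 77, 83 and 43 in KO cells and 10, 145 and 54 in WT cells. These numbers move with the number of peaks: with the 9438 highest peaks of each list, p65 had 6, 37 and 5 in KO cells and 4, 23 and 47 in WT cells, and SOCS1 8, 12 and 15 in KO cells and 10, 32 and 29 in WT cells. At equal numbers the p65 WT LPS 8 h list thus gave the most clusters of the 12. Of the 444 clusters, 66.2% overlapped a cluster of the p65 KO LPS 30 min list and 34.5% one of the p65 WT LPS 8 h list, and of those lists' own clusters 36.6% and 38.6% overlapped one of the 444.

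Choosing clusters by a list raises that list's own numbers. In the 805 clusters of the p65 KO LPS 30 min list, that list had 7.52 peaks per cluster and the p65 WT LPS 30 min list 4.75. In the 444 clusters these lists had 5.64 and 7.19. No difference between the p65 WT LPS 30 min list and another list in the 444 clusters is therefore read as a result.

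The 20 gene lists, of 377 distinct protein-coding genes, had 43 members in a cluster (11.4%), beside 657 of all 21887 protein-coding genes (3%). The 43 shared 38 clusters, since Tnf, Lta and Ltb lay in one, as did Ccl3 with Ccl4, Gbp3 with Gbp7, and Stat5a with Stat5b. Most lists were chosen for macrophages under LPS. Others held housekeeping genes, neuronal and hepatic genes, or markers of neutrophils, lymphocytes and dendritic cells. Of all genes, 61.9% had a 30 min peak within 10 kb. Closeness to p65 peaks was thus far more common than a cluster. Any overlap of gene and cluster span counted. At Irf8, Il6st, Jak2, Csf1r, Tbk1, Stat5a, Mertk and Ccl4, among others, the cluster reached only an end of the gene.

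Among signals and receptors, 6 of 22 pro-inflammatory cytokines lay in 4 clusters: Tnf, Lta and Ltb, then Il18, Osm and Il1rn, the antagonist of the interleukin-1 receptor. Of 18 chemokines 4 did, Ccl2, Ccl3, Ccl4 and Cxcl16. The cluster at Il1rn held 0, 7 and 2 p65 peaks in KO cells and 2, 8 and 3 in WT cells (control, LPS 30 min, LPS 8 h). Osm, which encodes oncostatin M, had 1, 5 and 2 in KO cells and 0, 6 and 4 in WT cells. Il18 stood apart from Osm in its SOCS1 peaks at 30 min, with 1 in KO and 2 in WT cells, where Osm had 4 and 5.

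Of 30 JAK-STAT components and SOCS family members, 8 lay in 7 clusters: Jak2, a kinase of cytokine receptors; Stat5a, Stat5b and Stat6; Cish; Ifnar2, a chain of the type I interferon receptor; Il6st, the shared receptor chain gp130; and Ptpn6, the phosphatase SHP-1. At 8 h the p65 peaks were fewer in KO than in WT cells in 6 of these 7 clusters, beside 301 of all 444. Ifnar2 had 2 in KO and 8 in WT cells, Jak2 1 and 4, and Cish 2 and 5. Ptpn6 went the other way, with 7 in KO and 6 in WT cells. Over all 38 clusters with a list member, 32 had fewer p65 peaks in KO cells at 8 h, 3 as many and 3 more, beside 301, 80 and 63 of all 444.

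Of 26 TLR4 signalling genes, 3 lay in clusters: Irak2, Irak3 and Tbk1, kinases or kinase-like proteins downstream of Toll-like receptors. Of 18 NF-κB subunits and feedback inhibitors, 1 did, Nfkbie, which encodes IκBε, although all 18 had a 30 min peak within 10 kb. Its cluster held 0, 7 and 4 p65 peaks in KO cells (control, LPS 30 min, LPS 8 h) and 4, 6 and 7 in WT cells. Of 28 immediate-early and AP-1 genes, 3 lay in clusters, Fosb, Ier5 and Maff. The Maff cluster held 2, 5 and 1 SOCS1 peaks in KO cells and 2, 8 and 1 in WT cells (control, LPS 30 min, LPS 8 h). The Ier5 cluster held 5, 4 and 4 in KO cells and 1, 6 and 5 in WT cells, so unlike Maff it kept several SOCS1 peaks at 8 h.

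Of 30 interferon-stimulated genes, 3 lay in clusters, Gbp3, Gbp7 and Irf8. The Gbp cluster had 1, 4 and 3 p65 peaks in KO cells and 0, 6 and 1 in WT cells. Of 15 anti-inflammatory and tolerance genes 3 did, Irak3, Sbno2 and Cd200r1, and of 24 antimicrobial and redox genes 2, Acod1, which makes itaconate, and Slc11a1, a metal transporter of phagosomes. Of 23 macrophage identity genes, 4 lay in clusters: Runx1, Irf8, Csf1r, the receptor of the growth factor M-CSF, and Mertk, a receptor for dying cells. At 8 h their p65 peaks numbered 2 in KO and 3 in WT cells at Runx1, 3 and 6 at Irf8, 4 and 6 at Csf1r, and 5 and 6 at Mertk; 2 of these 4 differences are of a single peak. Of 18 antigen presentation genes 3 did, H2-Eb1, Ciita and Tapbp.

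Single members of other lists lay in clusters: 1 of 15 alternative activation genes (Tgm2), 1 of 18 cell death genes (Gadd45b), 1 of 20 glycolysis genes (Hk2), 1 of 14 lymphocyte markers (Ms4a1) and 1 of 10 dendritic cell markers (Xcr1). None of 16 cholesterol and lipid genes, 16 housekeeping genes, 12 neutrophil markers, and 20 neuronal and hepatic genes did. All 16 housekeeping genes had a 30 min peak within 10 kb, against 4 of 12 neutrophil markers and 7 of 20 neuronal and hepatic genes. At the share of all genes few such members would lie in a cluster, so the counts of 0 do not set these lists apart, and with a joining distance of 25 kb 4 of the 16 housekeeping genes lay in one.

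**Figure D5:**
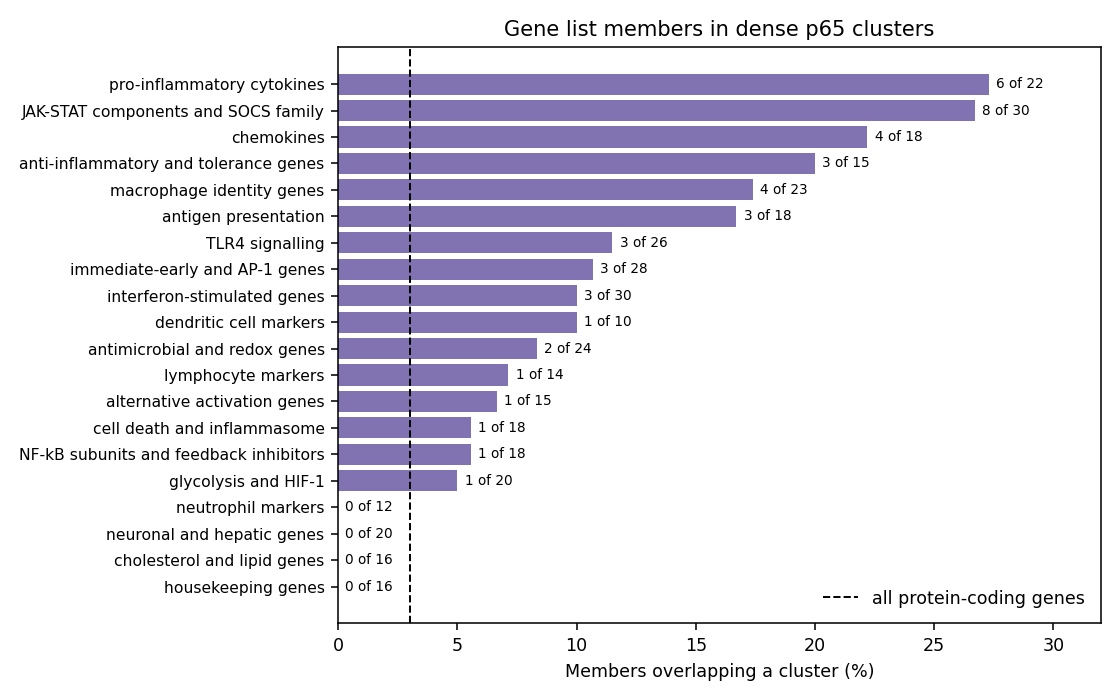
Share of the protein-coding members of each gene list that overlap a cluster (%), with the number of members beside each bar; the dashed line is the share of all protein-coding genes, 3.00%. Cytokines (6 of 22) and JAK-STAT components (8 of 30) have the longest bars, and 4 lists have none.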

How the data were processed

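The libraries were CUT&RUN profiles of mouse bone-marrow-derived macrophages. Per the submitters' processing notes, the authors used cutadapt, Bowtie2 2.4.1 and HOMER 4.11 with the mm10 build. Per the file headers, each deposited list was called from a single library with the matching IgG library as background, at an FDR of 0.001, at least 4-fold over IgG and over the surrounding 10 kb, and a Poisson p-value of at most 0.0001. The deposited signal is the tag number of a peak scaled by the authors to 10000000 tags; the deposited score is HOMER's unscaled tag number; the ratio is the authors' fold over IgG or over local background; the p-value is the authors' own, and the deposited fraction tells how far tags flank a peak's centre as HOMER expects. Libraries held 6.93 to 18.4 M tags and the lowest score of a list was 7 to 12, so weaker sites went uncalled. Peak widths of 222 to 493 bp differ between lists and bear on shares of overlap. 6 IgG libraries entered only through the calls and 2 internal controls were left out.

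Clusters were built with Python 3.11.15 (pandas 2.3.3, numpy 2.4.6) and intervals with scipy 1.17.1; the steps were tested on simulated data. A peak belonged to a cluster if its centre lay in the span between the first and last centre, and was found again if a peak of another list overlapped it by at least 1 bp. Differences between lists were counted where either list had at least 4 peaks and one had at least 2 times the other, in clusters and in 100 kb windows. Genes were the 21887 protein-coding genes of the RefSeq table of this build that overlap a span. Named were the 10 clusters with most 30 min peaks, 5 each with most peaks in the other lists, in p65 WT control, in SOCS1 WT at 30 min and at 8 h and in SOCS1 KO control, the 5 largest p65 differences at 8 h each way, clusters without SOCS1, up to 8 members of each gene list, and 3 on each side of the threshold, of which 1 is not reported here. The rule, the members and the gene lists were chosen with earlier results of these data known. Alternatives varied the joining distance, the minimum number of peaks, the peaks used, the overlap and the width of the span.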

Additional observations from a re-analysis of the deposited data

Results flagged for a closer look

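SOCS1 peaks summed over the 444 clusters moved in opposite directions in the 2 genotypes at LPS 8 h: the difference from the control was -45 in KO cells (1130 at 8 h, 1175 in the control) and 485 in WT cells (1171 at 8 h, 686 in the control). There is 1 library per group and the difference between genotypes was not tested. The KO control list is the longest of the SOCS1 lists, with 24270 peaks; with equal numbers of peaks the ratio of 8 h to control in the clusters was 1.15 in KO cells and 1.33 in WT cells, above 1 in both.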

How the results depend on the processing

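The number of clusters depended on each choice of the rule: it was 12 with a joining distance of 6.25 kb, 1512 with 25 kb, 127 with at least 8 peaks, 44 with at least 10, and 8 with only peaks at least 8-fold over local background, against 444. Gene-list members in clusters numbered 0, 166, 19, 11 and 4 in that order, where the share of all genes was 0.0548%, 15.2%, 1.08%, 0.503% and 0.0777%.

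The share of peaks found again, clusters minus elsewhere, was 7.28 points for p65 KO LPS 30 min, 7.73 for p65 WT LPS 8 h and 3.53 for SOCS1 WT LPS 30 min at 6.25 kb. It was 5.88 for p65 KO LPS 30 min with at least 8 peaks, and 10.18 for SOCS1 WT LPS 30 min with at least 10. With only peaks at least 8-fold over local background it was 12 for p65 KO LPS 30 min, 1.65 for p65 WT LPS 8 h and 16.75 for SOCS1 WT LPS 30 min, on 8 clusters. Its sign turned at 6.25 kb for SOCS1 KO LPS 8 h (-0.40) and SOCS1 WT LPS 8 h (-2.75), at 25 kb for p65 KO LPS 8 h (0.75), and with the 8-fold peaks for p65 WT control (-2.41). Within 4 equal groups by score it turned for p65 KO control (-1.57), p65 KO LPS 30 min (-2.85), p65 WT LPS 8 h (-3.14), SOCS1 KO control (-2.29), SOCS1 KO LPS 30 min (-2.56), SOCS1 KO LPS 8 h (-2.59) and SOCS1 WT control (-0.02), and was 0.20 for SOCS1 WT LPS 30 min. The cause of the other changes was not tested.

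A peak of the p65 KO LPS 30 min list lay in 100% of clusters under all 5 cluster choices and with spans widened by 5000 bp. For p65 WT LPS 8 h it was 100% at 6.25 kb, with at least 10 peaks and with 8-fold peaks, and 99.77% with widened spans. For SOCS1 WT LPS 30 min it was 83.33% at 6.25 kb, 97.64% with at least 8 peaks, 100% with at least 10 and with 8-fold peaks, and 96.62% with widened spans. The other choices below were added after seeing the data, except that of equal lists. Clusters with at least 2 times fewer p65 peaks at 8 h in KO than in WT cells were 25.80% at 25 kb, 33.33% with at least 10 peaks, and 31.89% with both lists thinned. The share of 100 kb windows was 25.5% with all peaks and was not counted with the lists thinned. Clusters with at least 2 times more SOCS1 peaks in WT cells at 30 min than in the control were 65.06% with at least 8 and 61.76% with at least 10 peaks, and those with fewer 0.00% with at least 10. The motif share was 0.00% at 6.25 kb and with 8-fold peaks, 3.52% at 25 kb and 3.33% with at least 8 peaks; with at least 10 peaks it stayed within its interval. With the 9438 highest peaks of each list the same rule gave 37 (p65 KO LPS 30 min), 5 (p65 KO LPS 8 h), 47 (p65 WT LPS 8 h), 8, 12 and 15 (SOCS1 KO control, LPS 30 min, LPS 8 h), and 32 and 29 (SOCS1 WT LPS 30 min, LPS 8 h) clusters, fewer peaks being tested. 2-fold counts could not be given at 6.25 kb and with 8-fold peaks, where under 20 clusters were counted. Leaving out a library was not possible with 1 per group. No paired analysis was possible because each group has 1 library and no replicate numbers.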
